A study of Rattus norvegicus with 7 samples.

Results

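The miRNAs described here are the rat miR-532, miR-500, miR-501 and miR-362 on the array, with both of their named arms, which come from neighbouring hairpins on the X chromosome. Members were chosen by name alone, as the array names beginning with one of these 4 miRNA names and followed by nothing, a star, -5p or -3p. The rule found 8 of the 677 rat miRNAs on the array: miR-532-5p, miR-532-3p, miR-500, miR-500*, miR-501, miR-501*, miR-362 and miR-362*. Of these, 1 was detected on all 7 arrays (miR-500), 3 were detected often enough to be tested (miR-532-5p, miR-362* and miR-500), and 4 were detected on no array.

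A miRNA hairpin is cut out of a longer transcript and then cut again into a short duplex, whose strands are the 5p and 3p arms. One arm is usually loaded into an Argonaute protein and kept, and a star in older names marks the arm thought to be the minor one. The loaded arm pairs with messenger RNAs mainly through its seed, bases 2 to 8 from the 5′ end, and lowers their translation and stability. Hairpins that lie inside an intron of a protein-coding gene can be made from that gene's transcript.

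The study asked which liver miRNAs differ after perfluorooctane sulfonate (PFOS), a persistent fluorinated surfactant that builds up in liver. The PFOS group was 4 adult male Sprague-Dawley rats given a diet with 50 mg of PFOS per kg for 28 days, and the Control group was 3 such rats on the control diet over the same time. Each array held total RNA from the frozen liver of 1 rat, labelled with Cy3, and all 7 lay on 1 slide with 1 scan. RNA of 4 rats per group was hybridised, and the submitters removed 1 Control array after quality control. Because whole liver was measured, fewer cells of a type and less of a miRNA per cell cannot be told apart.

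In the RefSeq annotation of GRCr8, the hairpins of this cluster spanned 11542 bases of chromosome X, between 17919185 and 17930726. All lay within the gene Clcn5, which encodes a chloride and proton exchanger of endosomes best known from the kidney. The order on the plus strand was mir-532 (17919185 to 17919263), mir-188 (17919585 to 17919664), mir-362 (17926485 to 17926549), mir-501 (17927189 to 17927272) and mir-500 (17930647 to 17930726). The hairpin mir-3560 was annotated on the minus strand across mir-501. The array's own annotation was made on an older assembly, and no array coordinates are used here.

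**Figure D1:**
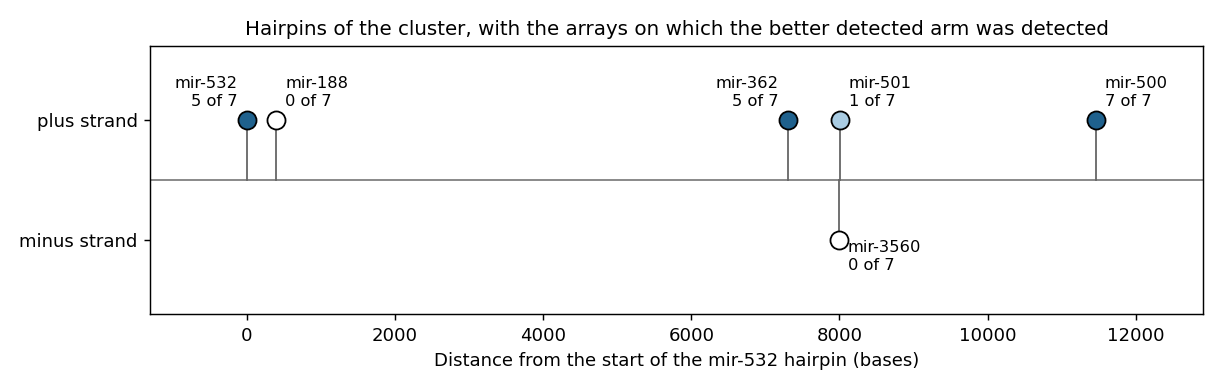
Position of the hairpins, as the distance in bases from the start of the mir-532 hairpin, on the plus and minus strands. The numbers are the arrays, of 7, on which the better detected arm was detected: 5 for mir-532 and mir-362, 7 for mir-500, 1 for mir-501 and 0 for mir-188 and mir-3560.

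The mature sequences of the hairpins are shown because the seeds set which members could share targets. They are from RefSeq (GRCr8), 5′ to 3′, with the seed in capitals. miR-362-5p is not shown, and its seed was not compared.
rno-miR-532-5p: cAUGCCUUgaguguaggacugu
rno-miR-532-3p: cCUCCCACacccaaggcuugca
rno-miR-362-3p: aACACACCuguucaaggauuca
rno-miR-501-5p: aAUCCUUUgucccuggguga
rno-miR-501-3p: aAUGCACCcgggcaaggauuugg
rno-miR-500-5p: aAUCCUUGcuaucugggugcuuag
rno-miR-500-3p: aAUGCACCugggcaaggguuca
rno-miR-188-5p: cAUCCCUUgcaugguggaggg
rno-miR-188-3p: cUCCCACAugcaggguuugc
The 3p arms of mir-500 and mir-501 had 1 seed in common, and 18 of the first 22 bases were identical. The substitutions, counted from the 5′ end with the miR-500-3p base first, were U9C, G18A, C21U and A22G. Their 5p arms were identical at 15 of 20 positions and differed in the last seed base. Hybridisation of one of these miRNAs to the probes of the other was not tested, so signals of miR-500 and miR-501 may not be fully separate. Among the members, only miR-532-5p and miR-532-3p carried the same name on the array and in RefSeq. The array names miR-500, miR-501 and miR-362, with or without the star, could not be assigned to an arm here, and values are given under the array names.

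**Figure D2:**
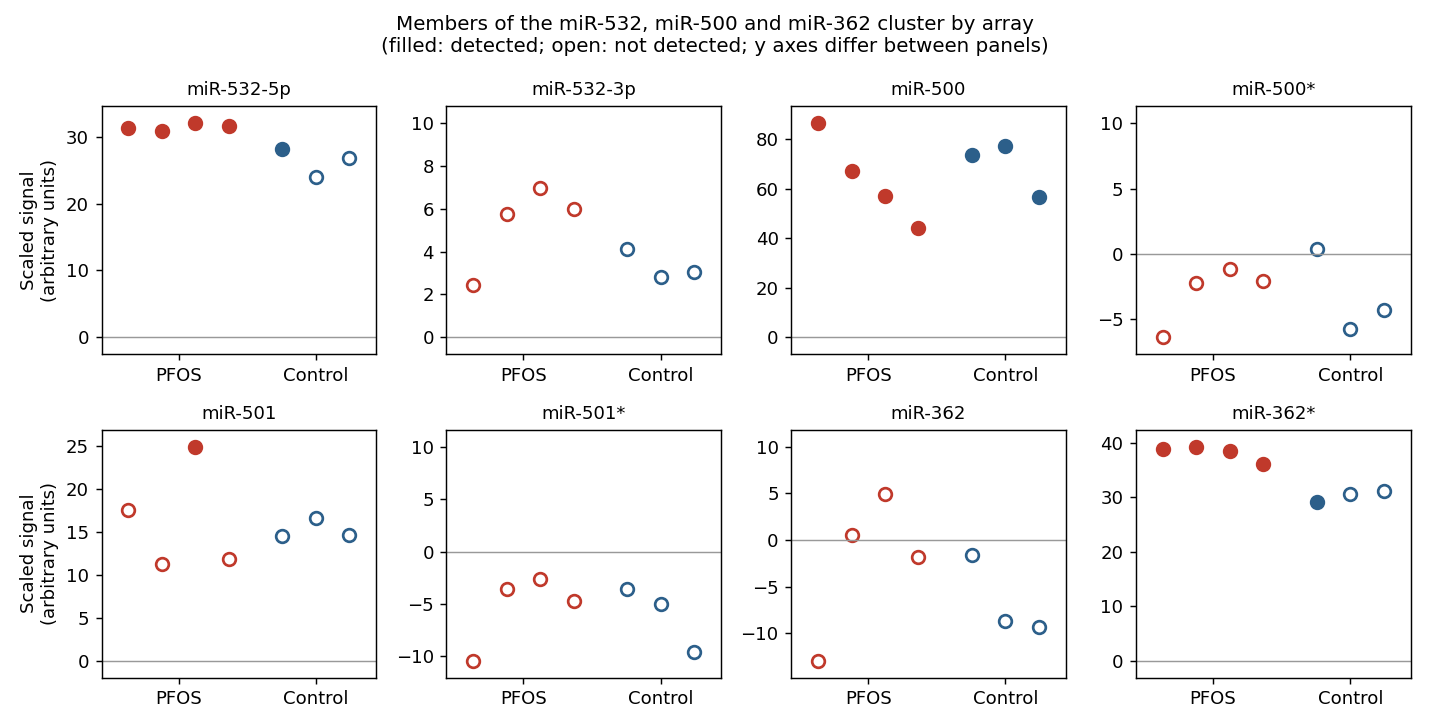
Signal of each member on every array after scaling to a common 75th percentile, in arbitrary units, with PFOS arrays on the left of each panel and Control arrays on the right. Filled points are arrays on which the miRNA was detected; miR-532-5p and miR-362* were filled on all 4 PFOS arrays and on 1 Control array.

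Most members of the cluster lay close to background in liver. Each member had 20 spots on an array, and an array counted as detecting a miRNA when the scanner software put more than 50% of the spots of any of its probes well above background, outlier spots aside. miR-500 was detected on all 4 PFOS and all 3 Control arrays. miR-532-5p and miR-362* were each detected on 4 of 4 PFOS arrays and on 1 of 3 Control arrays, the same one (Control 1) for both. miR-501 was detected on 1 of 4 PFOS arrays (PFOS 3) and 0 of 3 Control arrays. miR-532-3p, miR-500*, miR-501* and miR-362 were detected on none.

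Counted over spots, miR-500 was well above background at 80 of 80 on PFOS arrays and 50 of 60 on Control arrays. For miR-362* these counts were 74 of 80 on PFOS arrays and 14 of 60 on Control arrays, and for miR-532-5p 61 of 80 and 10 of 60. The 10 missing spots of miR-500 were all those of 1 of its probes on Control 3. miR-501 had 25 of 80 on PFOS arrays and 6 of 60 on Control arrays, miR-532-3p had 3 of 80 and 0 of 60, and miR-501* had 1 of 80 and 0 of 60. miR-500* and miR-362 had 0 in either group.

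**Figure D3:**
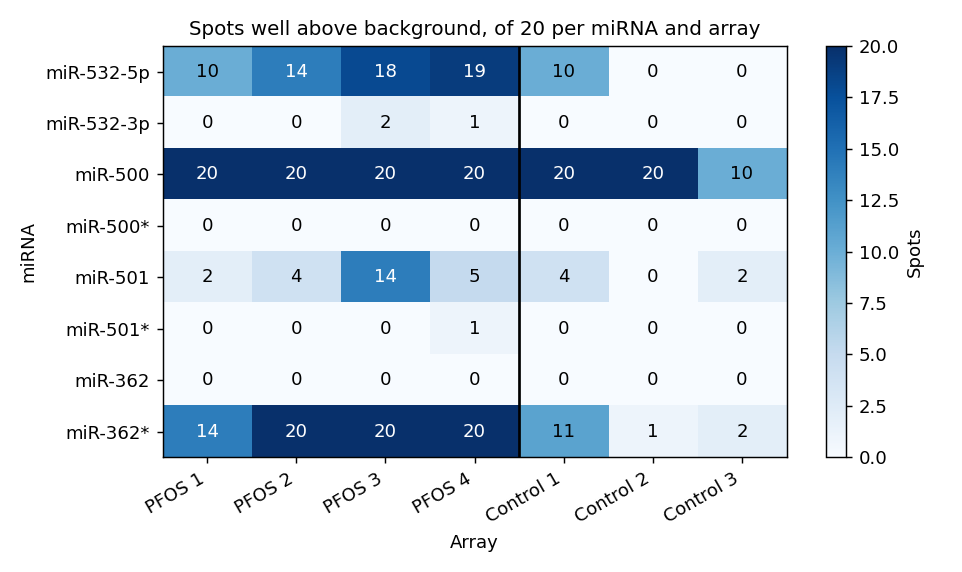
Number of spots, of 20 per miRNA and array, that the scanner software called well above background, with the PFOS arrays left of the line and the Control arrays right of it. miR-500 was at 20 on every array but Control 3, while miR-532-5p and miR-362* were at 10 or more on each PFOS array and on Control 1.

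The 2 members detected on every PFOS array but not on every Control array stood beside 9.13% of the 219 miRNAs detected on at least 1 array. The opposite pattern was seen for 0 members and for 1.83% of the 219. Array brightness also differed between the groups, and its part in this count was not tested. The median unscaled signal of the miRNAs detected on all arrays was 258 ± 46.2 on PFOS arrays (SD, n = 4) and 149 ± 23.9 on Control arrays (SD, n = 3), a ratio of 1.74. The lowest spot called well above background, after scaling, was at 8.34 to 16.5 on PFOS arrays and at 14.4 to 22.3 on Control arrays. These are levels of single spots, while the signal of a miRNA is a sum over its probes.

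The detection difference depended on the rule. With the scanner software's own flag per miRNA, miR-532-5p, miR-362* and miR-500 were detected on 4 of 4 PFOS and 3 of 3 Control arrays. Under that flag miR-501 was detected on 3 of 4 PFOS and 0 of 3 Control arrays, and miR-532-3p on 2 of 4 and 0 of 3. The other rule used 1 threshold for all arrays, at the highest of their own scaled thresholds (22.3), which the mean of at least 1 probe had to pass. By it, miR-362* was detected on 2 of 4 PFOS and 0 of 3 Control arrays, and miR-532-5p on 1 of 4 and 0 of 3. The brighter probe of miR-362* was at 21.4 to 23.4 on PFOS arrays and 17.5 to 18.9 on Control arrays. Signals of a miRNA, as sums over its probes, can lie above 22.3 when no probe does. Both rules were added after the data were seen, and under both, 0 members were detected on every PFOS array and not on every Control array. Of all miRNAs detected on at least 1 array, 7.66% of 261 had that pattern under the flag and 2.52% of 159 under the common threshold. The opposite pattern was seen for 1.92% under the flag and 6.29% under the common threshold, where it was the more frequent one.

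For each of mir-532, mir-500 and mir-362, exactly 1 named arm was tested, and for mir-501 neither. For mir-362 it was the starred name. Of the 205 pairs of a starred and an unstarred name on the array, 69 had only the unstarred name tested and 9 only the starred name. As no hairpin of the cluster had both arms tested, 0 members entered the fit of arm ratios.

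The tests compared normalised signals, which are scaled, set to a floor, put on the log2 scale and aligned by cyclic loess. Over all 175 tested miRNAs, 0 (0%) passed an adjusted p of 0.05 in limma, where the lowest was 0.131. Without adjustment, 15 (8.57%) had a limma p under 0.05 and were higher in PFOS livers, and 19 (10.9%) were lower. The median log2 fold change over all tested miRNAs was -0.02, with 80 positive and 95 negative. miR-532-5p and miR-362* entered the test only through the PFOS arrays, being detected on 4 of 4 PFOS and 1 of 3 Control arrays. The filter therefore favoured a positive difference for both. Their fold changes, intervals, p-values, overlap and correlation with each other are a description of the values.

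miR-532-5p had normalised signals of 33.2, 27.5, 31.2 and 30.4 in PFOS livers and 28.3, 26.6 and 27.2 in Control livers. The highest values were in PFOS livers, but PFOS 2 lay below Control 1, so the groups overlapped. Means were 30.6 ± 2.34 in PFOS livers (SD, n = 4) and 27.4 ± 0.859 in Control livers (SD, n = 3). The log2 fold change was 0.16 (SE 0.08, 95% interval -0.04 to 0.36) and did not pass the test (limma adjusted p = 0.371). Before loess, the scaled signals were 31.3, 30.9, 32.0 and 31.6 in PFOS livers and 28.2, 24.0 and 26.8 in Control livers, which did not overlap. Its probes had PFOS over Control ratios of 1.23 and 1.18 in scaled signal.

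miR-362* had normalised signals of 40.7, 35.7, 37.8 and 34.5 in PFOS livers and 29.1, 33.2 and 31.9 in Control livers. Every PFOS value lay above every Control value, as for 17 (9.71%) of the 175 tested miRNAs in this direction. Means were 37.2 ± 2.73 in PFOS livers (SD, n = 4) and 31.4 ± 2.09 in Control livers (SD, n = 3). The log2 fold change was 0.24 (SE 0.09, 95% interval 0.03 to 0.46), with an unadjusted limma p of 0.0324 and an adjusted p of 0.224, which did not pass. Of the tested miRNAs, 19.4% had a smaller residual SD than its 0.102.

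Before loess, miR-362* had scaled signals of 38.8, 39.2, 38.4 and 36.0 in PFOS livers and 29.1, 30.6 and 31.2 in Control livers. On this scale the groups of both miR-362* and miR-532-5p did not overlap, beside 23 (13.1%) of all tested miRNAs that were higher without overlap and 4.57% that were lower without overlap. With loess, 9.71% were lower without overlap, and 0 members were. The probes of miR-362* had PFOS over Control ratios of 1.31 and 1.22. Both miRNAs were close to the detection limit. A miRNA held at the floor of 12.1 in both groups would come out at -0.15 log2 after loess, so the alignment itself shifts dim miRNAs. With normexp background correction in place of the processed signal, the log2 fold change was 0.016 for miR-362* (SE 0.035, limma adjusted p = 0.841). For miR-532-5p it was -0.039 (SE 0.031, limma adjusted p = 0.470). That run added an offset of 50, above the scaled signals of both miRNAs, and an offset shrinks log2 differences. These sizes therefore cannot be compared with the main fit. In that run miR-362* was below its SE, and miR-532-5p had the opposite sign to the main fit. The same run put 22 of the 175 tested miRNAs past the threshold (6 higher, 16 lower). Why the sign of miR-532-5p changed was not tested. The part of array brightness in the differences of miR-362* and miR-532-5p was not tested either.

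miR-500, the one member detected on every array, had normalised signals of 81.9, 66.8, 58.0 and 42.4 in PFOS livers and 75.3, 79.9 and 58.7 in Control livers. The PFOS values spread on both sides of the Control values, with PFOS 1 highest of all and PFOS 4 lowest. Means were 62.3 ± 16.5 in PFOS livers (SD, n = 4) and 71.3 ± 11.1 in Control livers (SD, n = 3). The log2 fold change was -0.22 (SE 0.24, 95% interval -0.79 to 0.34) and did not pass the test (limma adjusted p = 0.669). It was -0.06 without PFOS 4. Its residual SD of 0.343 was above that of 74.3% of the tested miRNAs, and its probes followed each other over the arrays (r = 0.945 over 7 arrays).

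**Figure D4:**
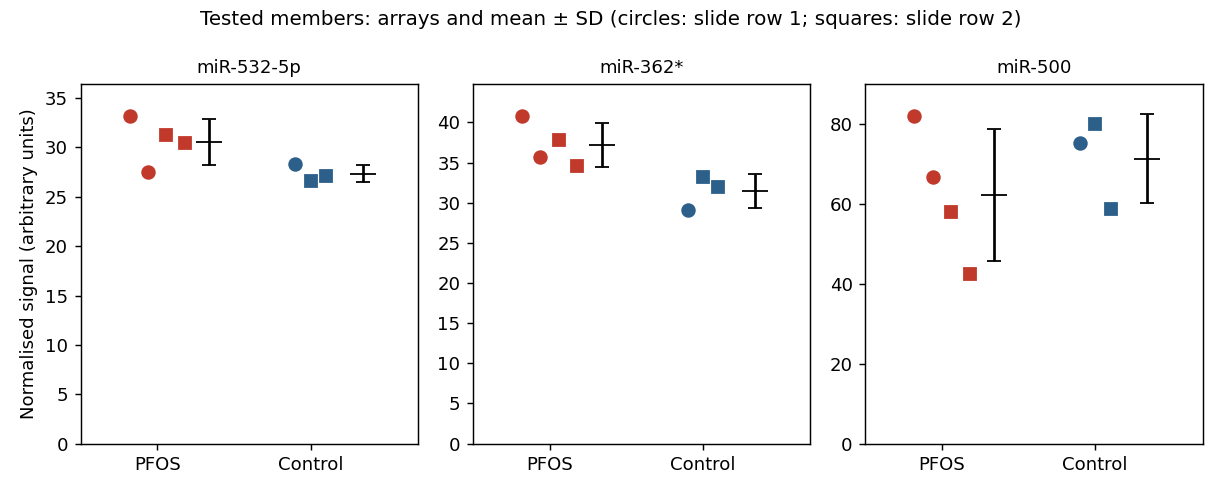
Normalised signal in arbitrary units of the 3 tested members on every array, PFOS left and Control right, with group means and SD as bars; circles are arrays of slide row 1 and squares of row 2. The groups of miR-362* did not overlap, those of miR-532-5p overlapped at PFOS 2 and Control 1, and miR-500 ranged between 42.4 and 81.9 in PFOS livers.

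The slide held PFOS 1, PFOS 2 and Control 1 in row 1 and the other arrays in row 2. Within row 1 and row 2, the log2 difference of PFOS and Control was 0.39 and 0.15 for miR-362*, 0.09 and 0.20 for miR-532-5p, and -0.03 and -0.47 for miR-500. The sign was the same in both rows for each, with 1 Control array in row 1. For miR-362* and miR-532-5p the filter favoured a positive sign, so this is a description.

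The members below the test's filter had low signals. miR-501 had unscaled signals of 15.8, 13.9, 40.4 and 14.2 on PFOS arrays and 12.0, 11.1 and 12.0 on Control arrays. After scaling, they were 11.2 to 24.9 on PFOS arrays and 14.5 to 16.6 on Control arrays, so the groups overlapped. The probes of miR-501 did not follow each other over the arrays (r = -0.196). PFOS 3, the one array with miR-501 detected, stood apart in unscaled signal, but less so after scaling (24.9 against 17.6 on PFOS 1). It was also the array with the most detected miRNAs (200). The bound on the fold of miR-501 was under 1, so no fold is given. miR-532-3p had unscaled signals of 2.21, 7.14, 11.3 and 7.23 on PFOS arrays and 3.44, 1.88 and 2.51 on Control arrays. After scaling, they were 2.45 to 6.97 on PFOS arrays and 2.80 to 4.14 on Control arrays, which also overlapped. miR-532-3p had 2 spots well above background on PFOS 3, 1 on PFOS 4 and 0 on the other arrays.

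The unscaled signals of the other undetected members included values below 0, which are left by background subtraction. They were -11.7 to 8.00 on PFOS arrays and -7.66 to -1.31 on Control arrays for miR-362. For miR-500* they were -5.73 to -1.89 on PFOS arrays and -3.83 to 0.294 on Control arrays. For miR-501* they were -9.37 to -4.26 on PFOS arrays and -7.86 to -2.97 on Control arrays. These values set no level, and no fold is given.

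The remaining miRNAs of the same stretch added no measured level. miR-188 and miR-188* were detected on 0 arrays, with unscaled signals of miR-188 of 9.67 to 14.8 on PFOS arrays and 6.16 to 12.3 on Control arrays. miR-3560, whose reverse complement matched miR-501-3p at 22 of 22 positions, was also detected on none. miR-660 and miR-502 were not among the names on the array. In RefSeq, miR-329-3p had the seed of miR-362-3p and miR-511-5p that of miR-532-5p, and which array name holds these arms could not be assigned. miR-329, miR-329* and miR-511 were detected on none. miR-511* was detected on all 7 arrays, with means of 55.3 ± 5.14 in PFOS livers (SD, n = 4) and 52.6 ± 3.86 in Control livers (SD, n = 3), and a log2 fold change of 0.07 (SE 0.10, limma adjusted p = 0.798).

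Over the 7 arrays, miR-362* and miR-532-5p had the highest correlation of the 3 pairs of tested members, with Pearson r = 0.73 (exact permutation p = 0.0653, adjusted over 3 pairs 0.196). Spearman's rho was 0.679 (exact permutation p = 0.110, adjusted 0.329). Without Control 1 and PFOS 1, the arrays farthest from the median of miR-362*, r was 0.721, and for deviations from the group means it was 0.37. Of all 15225 pairs of tested miRNAs, 5.74% had a higher r, and the middle 50% of pairs ranged between -0.322 and 0.350. Arrays share a slide, a labelling and a normalization. Both miRNAs entered the test only through the PFOS arrays, and the permutation ran over all 7 arrays without regard to group. A group difference that both share adds to r, so r and its p-values are a description.

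For miR-500, r was 0.03 with miR-362* (exact permutation p = 0.952) and -0.12 with miR-532-5p (exact permutation p = 0.799, adjusted 0.952). Spearman's rho was 0.0714 with miR-362* and -0.0714 with miR-532-5p. Without Control 1 and PFOS 1, the arrays farthest from the median of miR-362*, r was -0.146 with miR-362*. Without PFOS 4 and PFOS 1, the arrays farthest from the median of miR-500, r was -0.538 with miR-532-5p. For deviations from the group means, r was 0.58 with miR-362*, above the other pairs on that measure, and 0.20 with miR-532-5p. The slide rows hold 3 and 4 arrays, too few for a correlation within a row.

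The miRNAs most like miR-500 over the 7 arrays, by Pearson r among those detected on all arrays, were miR-32* (r = 0.967), miR-466b (r = 0.963) and miR-652 (r = 0.950). They were picked for their r, so these values are a description. Without PFOS 4, r was 0.911, 0.901 and 0.885 in the same order. The spread in miR-32* was wide, with normalised signals of 192, 115, 66.6 and 20.5 in PFOS livers and 210, 203 and 112 in Control livers. PFOS 4 was lowest for all 3, as it was for miR-500. Their log2 fold changes of -1.18 (SE 0.75), -1.02 (SE 0.59) and -0.26 (SE 0.18) did not pass the test (limma adjusted p = 0.481, 0.414 and 0.499).

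**Figure D5:**
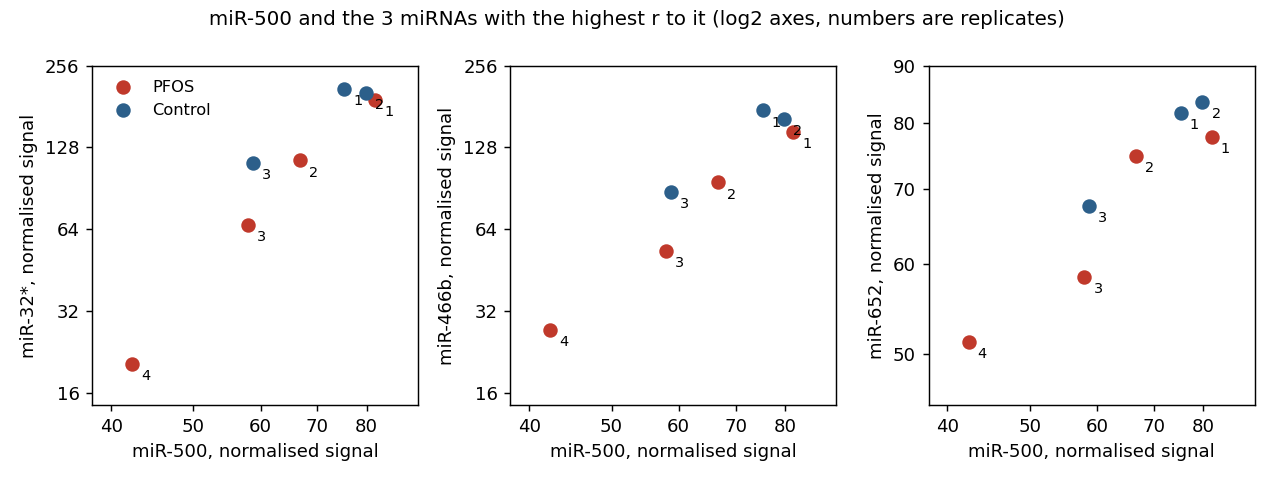
Normalised signal of miR-32*, miR-466b and miR-652 against that of miR-500, both on log2 axes, with 1 point per array and the replicate number beside it. In each panel PFOS 4 is at the lower left and PFOS 1, Control 1 and Control 2 are at the upper right.

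Across the whole arrays, detected miRNAs numbered 161 to 200 on PFOS arrays and 131 to 174 on Control arrays. The summed signal of the 4 hepatocyte markers on the array, all tested, was 64413 to 67167 on PFOS arrays and 65825 to 66836 on Control arrays. Most of that sum was miR-122, at 57369 to 60193 on PFOS arrays and 58023 to 59008 on Control arrays, so the sum says little of the other markers. The 5 tested leukocyte markers summed to 1068 to 1380 on PFOS arrays and 1178 to 1303 on Control arrays. Epithelial markers, 3 of 5 tested, summed to 294 to 536 on PFOS arrays and 62.7 to 190 on Control arrays, with miR-200c and miR-141 detected on none. The summed ranges on PFOS and Control arrays overlapped for the endothelial (1714 to 1854 and 1571 to 1936), stellate (746 to 1047 and 819 to 1023) and erythroid markers (438 to 1079 and 518 to 930). Of the 4 muscle markers, only 1 was tested (miR-206), with overlapping ranges of 12.0 to 57.4 and 22.7 to 60.5. The muscle markers miR-1, miR-133a and miR-133b were detected on none. The part of the epithelial difference in the values of the members was not tested.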

How the data were processed

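The data were 7 single-colour Agilent rat miRNA arrays, 4 PFOS and 3 Control, grouped by their titles. Spot intensity values were made with Feature Extraction 10.7.3.1 and are background-subtracted and spatially detrended, per the file headers. Per the labels, the authors used cyclic lowess for the log2 values of their deposited series table. These values served as an alternative, and each column followed the log2 median pixel signal of its array.

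Spots of a probe were averaged without outlier flags, over 13540 non-control spots and 1644 probes, and the probes of a miRNA were summed. Scaling brought the 75th percentile of the miRNAs detected on every array to 1 value. A floor was set at the 1st percentile of detected values before log2. Cyclic loess (span 0.7, 3 iterations) was fitted on the miRNAs detected on every array. Tested were miRNAs detected on all 3 Control or at least 3 PFOS arrays, with limma 3.58.1 in R 4.3.3 over all 175 and Benjamini-Hochberg adjustment at 0.05. The fit was also run on simulated data, but with equal loess weights and without the floor and detection filter, so those steps were not checked. Correlations used exact two-sided permutation over pairings. The number of arrays limits the precision. All members were named, as were the other miRNAs of the stretch, those sharing a seed, and the 3 most like any member detected on all arrays. Members, lists and tests were chosen with earlier results of these data known.

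The main co-variation test was to cover members detected on all arrays. As this was 1 miRNA, the 3 tested members were used instead, a choice made after seeing the data. The files were loaded through jsonlite 2.0.0 and data.table (version 1.17.8), and plots drawn with matplotlib 3.10.9 in Python 3.11.15.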

Additional observations from a re-analysis of the deposited data

Results flagged for a closer look

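Spot counts and signals of the members were screened on the PFOS arrays for 1 array far from the other PFOS arrays. Control arrays were not screened. The rule is met by chance in about 1 in 20 groups of untied values. Of 13 measures screened, 2 met it, both counts with the other arrays tied, to which that rate does not apply. The number of miR-362* spots well above background was 14 on PFOS 1, against 20 on each of the other 3 PFOS arrays. The number of miR-501* spots well above background was 1 on PFOS 4, against 0 on each of the other 3 PFOS arrays.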

How the results depend on the processing

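No paired analysis was possible because the labels give animal numbers and no replicate number shared by the groups. The count of tested miRNAs past the threshold, 0 in limma as reported (34 at an unadjusted p under 0.05), was 3 with scaling to the 75th percentile of all miRNAs (3 higher, 0 lower), 22 with normexp background (6 higher, 16 lower), 9 in the deposited table (0 higher, 9 lower), 1 with the scanner software's total gene signal, 1 of 677 with no filter and 4 with the slide row as a block (3 higher, 1 lower). It was 0 to 0 when any 1 array was left out. No member passed under any alternative run. miR-362* was positive under all 13 settings (0.02 to 1.48, adjusted p 0.0953 to 0.841), was 0.39 within slide row 1, and ran 0.20 to 0.35 with any 1 array left out. miR-500 reversed in sign to 0.063 (SE 0.22) with the 75th percentile of all miRNAs and to 0.0036 (SE 0.083) in the deposited table, both below their SE. It ran -0.34 to -0.06 with any 1 array left out. miR-532-5p reversed to -0.021 with equal-weight loess, where its SE was 1.69 against 0.08 in the main fit. It reversed to -0.039 (SE 0.031) with normexp, whose offset of 50 shrinks log2 differences of dim miRNAs. The value of miR-532-5p ran 0.11 to 0.27 with any 1 array left out. Over all tested miRNAs the median was 0.25 with the 75th percentile of all miRNAs and -0.54 with equal-weight loess; the cause of the reversals was not tested. Pairs of members past the threshold, 0 as reported, were 1 with the 75th percentile of all miRNAs and 1 with quantile normalization, both miR-362* with miR-532-5p (r 0.951 and 0.924, exact permutation, adjusted p = 0.000595 and 0.00298). Both members entered the test only through the PFOS arrays and the permutations ignored the groups, so these values are a description. The r of miR-362* and miR-500 reversed to -0.124 with 75th percentile scaling alone, -0.155 over all miRNAs, -0.677 with quantile, -0.587 with equal-weight loess, -0.146 with a loess weight of 0.01, -0.299 in the deposited table, -0.115 with mean log2 over probes and -0.171 with total gene signal; with any 1 array left out it ran -0.362 to 0.295. The r of miR-500 and miR-532-5p reversed to 0.460 with normexp and 0.200 for deviations from group means, and ran -0.667 to 0.0832 with any 1 array left out. Members detected on every PFOS array and not on every Control array, 2 as reported, were 0 with the scanner software's flag and 0 with the common threshold. The ratio of arms was not run, as no cluster hairpin had both arms tested, and the filter to miRNAs detected on all arrays gave no value for miR-532-5p or miR-362*. Signals close to background limit what can be said of every member but miR-500.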
